A study of Homo sapiens with 36 samples.

Results

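Collagens, fibrillins, fibulins, laminins, matrix metalloproteinases (MMPs), tissue inhibitors of metalloproteinases (TIMPs) and 8 adhesive glycoproteins and proteoglycans of the extracellular matrix were followed in H446 cells, an established cell line of human small-cell lung cancer of the NEUROD1-expressing (SCLC-N) subtype. Members were taken by gene symbol, and 71 of the 19014 genes in the table of normalized counts belong to them. The knockout (KO) clones 12, 15 and 2-1, in which NEUROD1 had been knocked out, were compared with the control clones 3, 10 and 13, which carry a non-targeting guide RNA and are labelled wild type. The labels name the same NEUROD1 guide RNA for all 3 KO clones. Any other effect of that guide cannot be told apart from the loss of NEUROD1. Cells of every clone received 1 µM JQ1, a BET bromodomain inhibitor, or the solvent DMSO for 24 h, giving 4 groups: KO with JQ1, KO with DMSO, control with JQ1 and control with DMSO. All groups share the H446 background, and each line is a single clone, so a difference between genotypes also holds whatever else sets these clones apart. The labels give 3 biological replicates per clone and treatment. A clone's libraries were averaged, so n = 3 clones per group and each SD is over clone means. One library, KO clone 12 with JQ1, replicate 1, is left out by the rule that defines the gene set.

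The extracellular matrix is built from collagen triple helices, which form fibrils, beaded filaments or the sheet of the basement membrane. Laminins are heterotrimers of 1 α, 1 β and 1 γ chain and form the other network of the basement membrane, while fibrillins form microfibrils of elastic tissue and fibronectin links fibrils to integrins. MMPs cleave matrix proteins and TIMPs inhibit MMPs. In the lung these genes are known mainly as products of fibroblasts, smooth muscle and basement-membrane-forming epithelium, and they are raised when tumour cells take on mesenchymal features.

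The 35 libraries used held 13282337 to 18890506 reads each, recovered from the normalized counts. NEUROD1 stood at 1.87 ± 2.93 normalized counts in KO clones with DMSO and at 5998 ± 580.5 in control clones with DMSO. The 8 markers of neuroendocrine small-cell lung cancer summed to 2691 to 5053 normalized counts per library in KO clones with DMSO and to 25029 to 30779 in control clones with DMSO. The 10 stromal markers outside the gene set, all in the table, summed to 3713 to 9963 in KO clones and to 5244 to 6979 in control clones with DMSO. With JQ1 the same sums were 2328 to 6077 in KO clones and 4174 to 5271 in control clones. PDGFRA and PDGFRB, receptors that define fibroblasts and pericytes, averaged 0.330 and 1.64 in KO clones with DMSO, against 42.5 and 55.0 in control clones with DMSO. They are not typical of the list: 6 of its 9 tested markers were higher in KO clones with DMSO, with a median log2 difference of 0.38. None of the 9 passed by limma (at an unadjusted p under 0.05, 0 higher and 2 lower), 1 passed by edgeR and 3 by DESeq2. Lung epithelial markers (5 of 8 in the table) summed to at most 129.8 in any of the 35 libraries. That sum was in control clone 13 with JQ1, replicate 1, and the next highest was 34.9. Blood markers (5 of 8) summed to 229.8 to 934.9 in KO clones and 30.2 to 91.4 in control clones with DMSO. Endothelial markers (4 of 7) summed to 55.8 to 520.9 in KO clones and 4327 to 8478 in control clones with DMSO, of which CDH5 alone gave a mean of 5951 in control clones. Fewer cells of a type and less RNA per cell cannot be told apart in these bulk libraries, and the part of any of these markers in the results below was not tested.

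Of the 71 members, 54 were tested, having 9 or more of the 35 libraries at 10 normalized counts or above. The 17 others were not. Of the 54, 8 reached the filter without a single control library at 10 (COL4A3, COL5A3, COL14A1, COL21A1, FBN2, LAMA3, LAMA4 and TIMP1), and COL9A1 reached it without a single KO library at 10. Those 9 had to differ to be tested at all, so their calls for genotype describe these libraries and support nothing further. A further 26 symbols that fit the rule stand only in the authors' FPKM table (fragments scaled by gene length and depth), where none exceeded 1.76 FPKM in the 35 libraries. They include the type IV chain gene COL4A2 and the collagenase, stromelysin and gelatinase genes MMP1, MMP3 and MMP9.

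Matrix transcripts took a larger share of the libraries in KO clones. With DMSO the 71 members made up 0.762% to 2.337% of all normalized counts in KO libraries (median 1.603%) and 0.247% to 0.372% in control libraries. With JQ1 the shares were 0.457% to 1.228% in KO libraries and 0.165% to 0.225% in control libraries. The ranges of the genotypes do not overlap under either treatment, also when FN1 is left out (0.490% to 1.187% in KO and 0.232% to 0.347% in control libraries with DMSO). Of the 54 members tested with DMSO, 20 rose and 8 fell in KO clones (adjusted p under 0.05), where 6.29% of all 15711 genes tested rose and 6.26% fell (12.5% in either direction). Of these, 7 of the rises and 1 of the falls are among the 9 members that had to differ. Of the 45 members with a library at 10 in both genotypes, 13 rose and 7 fell, where 5.26% of the genes of that kind rose and 5.52% fell. The median log2 difference of the 54 members was 1.17, against 0.0063 over all genes tested. This median includes the 9 members that had to differ, so it is not a like comparison. The rises ranged from 1.25 to 13.93 on the log2 scale and the falls from -5.52 to -1.80. The largest rise, that of FBN2, is also among the 9.

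Among the fibrillar collagens, which form the banded fibrils of connective tissue, 2 of 7 tested members rose in KO clones with DMSO. Over all genes tested, 6.29% rose, and COL5A3 is among the members that had to differ to be tested. COL1A2, the α2 chain of type I collagen, ranged from 15474 to 30172 normalized counts over the 9 KO libraries with DMSO (median 17396) and from 1462 to 4726 over the 9 control libraries (median 4512). All KO libraries lie above all control libraries. The log2 difference was 2.66 (SE 0.47, adjusted p = 0.0139). COL5A3, a minor chain of type V collagen, averaged 34.5 ± 13.8 in KO clones and 2.02 ± 1.49 in control clones (log2 difference 3.68, SE 0.61, adjusted p = 0.0113). COL1A1, the partner of COL1A2 in type I collagen, did not follow it: it averaged 745.1 ± 458.1 in KO clones and 954.9 ± 1038 in control clones (log2 difference -0.07, SE 0.89, adjusted p = 0.972). Per length, COL1A2 stood at 298.2 ± 86.0 FPKM and COL1A1 at 11.7 ± 7.37 FPKM in KO clones with DMSO, against 54.7 ± 25.5 and 16.2 ± 17.7 FPKM in control clones with DMSO. COL3A1, the chain of type III collagen, lay at 4848, 9491 and 11148 in KO clones 12, 15 and 2-1 and at 4236, 303.2 and 163.7 in control clones 3, 10 and 13. Control clone 3 came close to the KO clones, and COL3A1 did not pass the threshold (log2 difference 3.75, SE 1.14, adjusted p = 0.0833). COL5A2, another type V chain, was likewise high in control clone 3 alone (5437, against 146.9 and 292.7 in control clones 10 and 13, and 29.1 to 60.1 in KO clones; adjusted p = 0.107).

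Of the 6 basement membrane collagens tested, 2 rose in KO clones with DMSO, COL4A3 and COL4A4. They encode the α3 and α4 chains of the type IV network known from kidney glomerulus and lung alveolus. Over all genes tested, 6.29% rose, and COL4A3 is among the members that had to differ to be tested. COL4A3 held 77.9 to 644.8 normalized counts in KO libraries (median 305.6) and 0 to 2.67 in control libraries (median 0). COL4A4 held 207 to 1559 in KO libraries (median 513) and 0 to 11.6 in control libraries (median 5.00). Neither gene's ranges overlap, and both were lowest in KO clone 12 and highest in KO clone 2-1. The log2 differences were 7.47 (SE 0.70, adjusted p = 0.00134) and 6.92 (SE 0.74, adjusted p = 0.0022). COL4A5 and COL4A6, the α5 and α6 chains, were expressed in both genotypes: COL4A5 averaged 2325 ± 1359 in KO and 1116 ± 564.6 in control clones (adjusted p = 0.242), and COL4A6 averaged 1521 ± 1090 in KO and 713.6 ± 416.1 in control clones (adjusted p = 0.374). COL4A1, the ubiquitous α1 chain, was nearly absent, with 1 read over the 9 KO libraries and 0 over the 9 control libraries with DMSO. Zero reads in a group allow up to 3, and this limit covers counting error only.

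Both pairs of type IV genes stand head to head on their chromosomes, so that 1 stretch of DNA lies upstream of both genes of a pair. The 250 bases upstream of each start site are shown because 1 pair rose together and the other did not pass. They are from RefSeq on GRCh38.p14, whose table held a promoter for 54 of the 71 members. Each is written 5′ to 3′ on the strand of its gene, and capitals mark the bases that lie in the upstream windows of both genes of the pair. COL4A3 is at chr2:227164374-227164623 on the plus strand, COL4A4 at chr2:227164206-227164455 on the minus strand, COL4A5 at chrX:108439588-108439837 on the plus strand and COL4A6 at chrX:108439459-108439708 on the minus strand.
COL4A3: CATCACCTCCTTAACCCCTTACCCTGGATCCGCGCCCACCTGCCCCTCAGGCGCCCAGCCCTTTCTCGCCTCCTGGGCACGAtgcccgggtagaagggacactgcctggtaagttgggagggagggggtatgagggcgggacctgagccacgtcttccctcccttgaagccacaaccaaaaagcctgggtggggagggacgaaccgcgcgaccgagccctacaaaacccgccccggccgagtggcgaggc
COL4A4: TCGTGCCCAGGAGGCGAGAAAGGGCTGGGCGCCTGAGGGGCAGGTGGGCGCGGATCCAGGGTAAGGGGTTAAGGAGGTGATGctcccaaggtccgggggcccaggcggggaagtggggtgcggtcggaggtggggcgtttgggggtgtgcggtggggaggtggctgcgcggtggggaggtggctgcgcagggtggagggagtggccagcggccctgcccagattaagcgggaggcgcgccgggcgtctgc
COL4A5: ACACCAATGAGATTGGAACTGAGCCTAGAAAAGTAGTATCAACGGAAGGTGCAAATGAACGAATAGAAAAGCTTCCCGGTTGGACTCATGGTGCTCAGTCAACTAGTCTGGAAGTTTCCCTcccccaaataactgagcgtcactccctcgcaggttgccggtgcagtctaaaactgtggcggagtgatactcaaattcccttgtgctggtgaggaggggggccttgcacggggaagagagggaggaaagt
COL4A6: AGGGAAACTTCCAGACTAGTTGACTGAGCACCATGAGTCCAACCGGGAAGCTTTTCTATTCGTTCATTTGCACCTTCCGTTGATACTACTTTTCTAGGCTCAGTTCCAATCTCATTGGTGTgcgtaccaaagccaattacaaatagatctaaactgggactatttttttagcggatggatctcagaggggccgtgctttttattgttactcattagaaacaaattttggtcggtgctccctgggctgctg
The start sites of COL4A3 and COL4A4 lie 419 bases apart and share 82 bases of their windows. Those of COL4A5 and COL4A6 lie 380 bases apart and share 121 bases, taking the COL4A6 start nearer to COL4A5 of its 2 in the table. In these 250-base windows, and in the 250 bases upstream of all 35116 promoters' starts, 6 motifs were searched on both strands. GGGCGG (the GC box) occurred 2 times in the COL4A3 window and in none of the other 3, where 42.6% of all 35116 promoters hold it. CCAAT occurred 2 times in COL4A5 and 3 times in COL4A6 and in neither window of the other pair, and 32.0% of all promoters hold it. Both COL4A5 sites lie in the shared capitals, so the same bases are counted again in COL4A6. CANNTG, the general E-box, occurred once in each of the 4 windows, and 61.8% of all promoters hold it. Within each pair this is the same site in the shared capitals, counted in both windows. CAGATG, an E-box that the CANNTG search also counts, TATAAA and TGANTCA occurred in none of the 4, where 12.2%, 10.7% and 6.57% of all promoters hold them.

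Type VI collagen, a beaded filament of 3 different chains around cells, changed unevenly. COL6A1 averaged 252.4 ± 234.0 in KO clones and 6.34 ± 2.40 in control clones (log2 difference 4.63, SE 0.86, adjusted p = 0.0169), a call lost without control clone 3 or 10 (adjusted p up to 0.0701). COL6A2, its neighbour on chromosome 21, averaged 314.7 ± 233.7 in KO clones and 1.51 ± 1.48 in control clones (log2 difference 6.97, SE 0.88, adjusted p = 0.00418). COL6A3, the third chain, averaged 76.8 ± 79.4 in KO clones and 86.7 ± 52.6 in control clones and did not pass (log2 difference -0.72, SE 0.97, adjusted p = 0.689). Of the other network collagens, COL7A1, which forms anchoring fibrils, rose (38.4 ± 2.70 in KO and 13.9 ± 2.61 in control clones, adjusted p = 0.0251). COL8A2, a short-chain collagen, fell: its KO libraries ranged from 352.5 to 829.2 (median 585.4) and its control libraries from 1853 to 2149 (median 2029), with a log2 difference of -1.80 (SE 0.25, adjusted p = 0.00589).

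Of the 7 fibril-associated collagens tested, 4 rose and the other 3 fell in KO clones with DMSO. Over all genes tested, 6.29% rose and 6.26% fell. COL14A1, COL21A1 and COL9A1 are among the members that had to differ to be tested. COL12A1, which decorates type I fibrils, ranged from 139.1 to 38728 in KO libraries (median 7002) and from 1.06 to 21.998 in control libraries (median 7.996). No KO library overlapped a control library, but the KO clones themselves lay far apart, with means of 38089, 148.7 and 7030 in clones 12, 15 and 2-1. The log2 difference was 8.70 (SE 1.92, adjusted p = 0.0307), and the call was lost without any single clone except KO clone 15 (adjusted p up to 0.1). COL14A1 averaged 114.8 ± 50.9 in KO and 3.06 ± 0.902 in control clones (log2 difference 4.88, adjusted p = 0.000948), and COL21A1 averaged 138.4 ± 165.3 in KO and 2.22 ± 1.12 in control clones (log2 difference 4.81, adjusted p = 0.0169). The COL21A1 call was lost without any single control clone (adjusted p up to 0.0701). COL9A2, a chain of cartilage type IX collagen, also rose (62.1 ± 19.3 in KO and 12.3 ± 3.78 in control clones, adjusted p = 0.0132).
The falls were COL19A1, COL16A1 and COL9A1. COL19A1, a collagen known from developing muscle and hippocampal interneurons in mouse, ranged from 112.2 to 257.2 in KO libraries (median 194.8) and from 1259 to 2483 in control libraries (median 1337). Its log2 difference was -3.12 (SE 0.34, adjusted p = 0.00261). COL16A1 averaged 82.4 ± 92.3 in KO and 1715 ± 1772 in control clones (log2 difference -4.43, SE 1.00, adjusted p = 0.033), a call lost without KO clone 15 or 2-1 or control clone 3 or 10 (adjusted p up to 0.0973). COL9A1 averaged 1.12 ± 1.65 in KO and 35.1 ± 19.0 in control clones (log2 difference -4.27, SE 0.67, adjusted p = 0.00943).

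The only transmembrane collagen tested, COL25A1, which is mainly neuronal, ranged from 4.84 to 286.4 in KO libraries (median 19.4) and from 707.2 to 941.7 in control libraries (median 746.4). KO clone 2-1, with a mean of 259.5, lay well above KO clones 12 and 15 at 14.2 and 16.9. The log2 difference was -4.32 (SE 1.07, adjusted p = 0.0449), and it lost the call without any single clone except KO clone 2-1 (adjusted p up to 0.131) and by edgeR.

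FBN2, the fibrillin of developing microfibrils, had the largest difference of all members. KO libraries with DMSO held 3082 to 58071 normalized counts (median 25448), and 8 of 9 control libraries held 0. Clone means were 56792, 3253 and 25720 in KO clones 12, 15 and 2-1. Summed over libraries, 242783 FBN2 reads were found in KO clones and 1 in control clones, a depth-corrected ratio of 247000 (95% interval 44400 to 9770000, counting error only). The fitted log2 difference was 13.93 (SE 0.97, adjusted p = 0.000389) and depends on the added count. FBN1, the fibrillin of adult tissue, averaged 528.2 ± 130.7 in KO and 805.0 ± 183.1 in control clones and did not pass (adjusted p = 0.165). FBLN5, a fibulin of elastic fibres, rose (354.9 ± 323.8 in KO and 29.1 ± 3.68 in control clones, log2 difference 3.09, adjusted p = 0.0393).

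Among the laminin chains tested with DMSO, LAMA3, LAMA5 and LAMB2 rose. Over all genes tested, 6.29% rose, and LAMA3 is among the members that had to differ to be tested. LAMA3, the α chain of epithelial laminin-332, ranged from 22.2 to 110.9 in KO libraries (median 63.6) and from 0 to 3.55 in control libraries (median 1.14; log2 difference 4.71, SE 0.60, adjusted p = 0.00438). LAMB3, the β chain of laminin-332, averaged 4527, 320.9 and 388.9 in KO clones 12, 15 and 2-1 and 23.4, 17.9 and 166.0 in control clones 3, 10 and 13, and did not pass (log2 difference 4.29, SE 1.22, adjusted p = 0.0684). LAMA5 and LAMB2, chains of the broadly expressed basement membrane laminins, rose less but evenly. LAMA5 averaged 3557 ± 567.3 in KO and 1504 ± 341.5 in control clones (log2 difference 1.25, SE 0.20, adjusted p = 0.0105), and LAMB2 averaged 1144 ± 101.7 in KO and 429.5 ± 35.9 in control clones (log2 difference 1.41, SE 0.15, adjusted p = 0.00191). Per length, LAMC1, the common γ chain, was the highest laminin in both genotypes, at 105.4 ± 20.2 FPKM in KO and 91.8 ± 4.36 FPKM in control clones with DMSO. Its log2 difference in normalized counts was 0.06 (SE 0.22, adjusted p = 0.901). LAMB1 followed at 64.7 ± 34.3 FPKM in KO and 37.9 ± 4.42 FPKM in control clones, a spread that overlaps that of LAMA5 in KO clones (45.1 ± 8.92 FPKM).

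**Figure D1:**
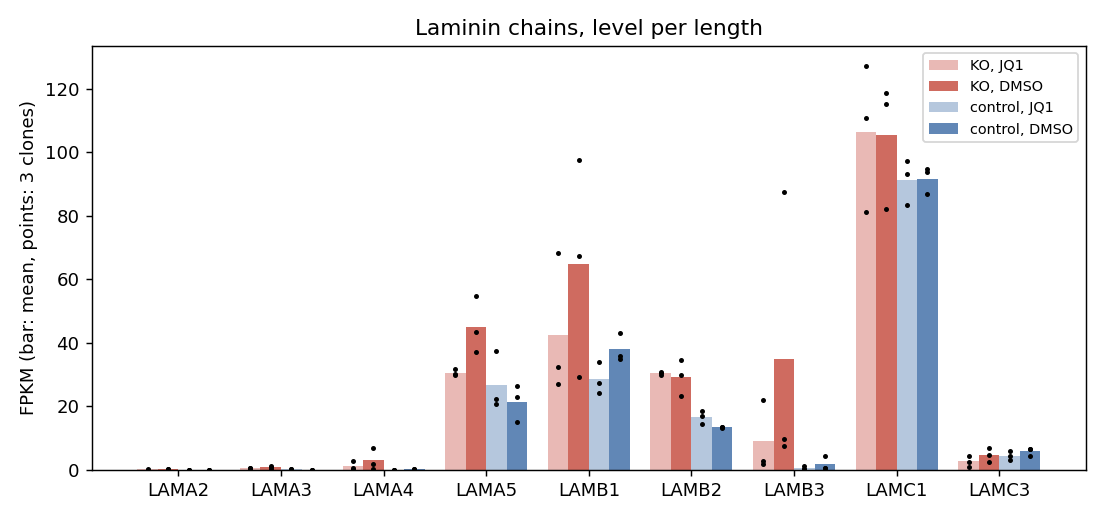
Level per length (FPKM) of 9 laminin chains, bars for the mean and points for the 3 clones of KO with JQ1, KO with DMSO, control with JQ1 and control with DMSO. LAMC1 is highest in all groups (105.4 FPKM in KO and 91.8 in control clones with DMSO), and the LAMB3 bar of KO clones with DMSO rests on 1 clone.

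Among the membrane-anchored MMPs, which act at the cell surface, the direction split by gene. MMP24, known from neurons, ranged from 6.81 to 36.9 in KO libraries (median 27.3) and from 768.8 to 1529 in control libraries (median 1095). All 3 KO clones lay within a narrow band (17.3 to 28.8), and the log2 difference of -5.52 (SE 0.33, adjusted p = 0.000214) was the largest fall among the members. MMP16 ranged from 170.2 to 481.5 in KO libraries (median 262.9) and from 1002 to 1642 in control libraries (median 1133; log2 difference -2.15, SE 0.32, adjusted p = 0.00762). MMP14, the activator of MMP2, rose, with 39.9 to 192.9 in KO libraries (median 78.6) and 2.901 to 14.3 in control libraries (median 6.995; log2 difference 3.57, SE 0.55, adjusted p = 0.00845). MMP15 averaged 285.6 ± 151.0 in KO and 242.2 ± 136.1 in control clones (adjusted p = 0.824). The secreted gelatinase MMP2 averaged 1128 ± 744.1 in KO and 1015 ± 384.8 in control clones (adjusted p = 0.927), and the stromelysin MMP11 averaged 223.4 ± 165.5 in KO and 273.1 ± 211.0 in control clones (adjusted p = 0.828).

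TIMP1, an inhibitor of secreted MMPs, ranged from 526.9 to 3561 in KO libraries (median 570.1) and from 1.06 to 7.81 in control libraries (median 3.43). KO clone 15 was the highest at 3467, with KO clones 12 and 2-1 at 567.8 and 539.4. The log2 difference was 7.88 (SE 0.75, adjusted p = 0.0014). TIMP2, which also takes part in MMP2 activation, averaged 7988 ± 4152 in KO and 2640 ± 1024 in control clones and did not pass (log2 difference 1.57, SE 0.44, adjusted p = 0.0641).

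Of the 7 adhesive glycoproteins and proteoglycans tested, 2 rose in KO clones with DMSO, where 6.29% of all genes tested rose. FN1, fibronectin, ranged from 41556 to 193745 in KO libraries (median 105717) and from 2186 to 3957 in control libraries (median 2295). Its log2 difference was 5.14 (SE 0.53, adjusted p = 0.00185), and per length it stood at 1094 ± 622.0 FPKM in KO and 28.9 ± 9.92 FPKM in control clones. POSTN, periostin, an adhesive protein of fibrous tissue, averaged 3497 ± 5044 in KO and 24.0 ± 35.6 in control clones (log2 difference 7.43, SE 1.74, adjusted p = 0.0369). The POSTN call was lost without any single clone except control clone 13 (adjusted p up to 0.113) and by edgeR. VCAN, versican, averaged 6470 ± 236.1 in KO and 5149 ± 1462 in control clones (adjusted p = 0.302), and TNC, tenascin-C, averaged 3627 ± 2961 in KO and 2749 ± 1169 in control clones (adjusted p = 0.949). SPARC, a collagen-binding glycoprotein, varied more between clones than between genotypes, at 781.1, 30.3 and 3022 in KO clones 12, 15 and 2-1 and 40.7, 149.7 and 2017 in control clones 3, 10 and 13 (adjusted p = 0.83).

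**Figure D2:**
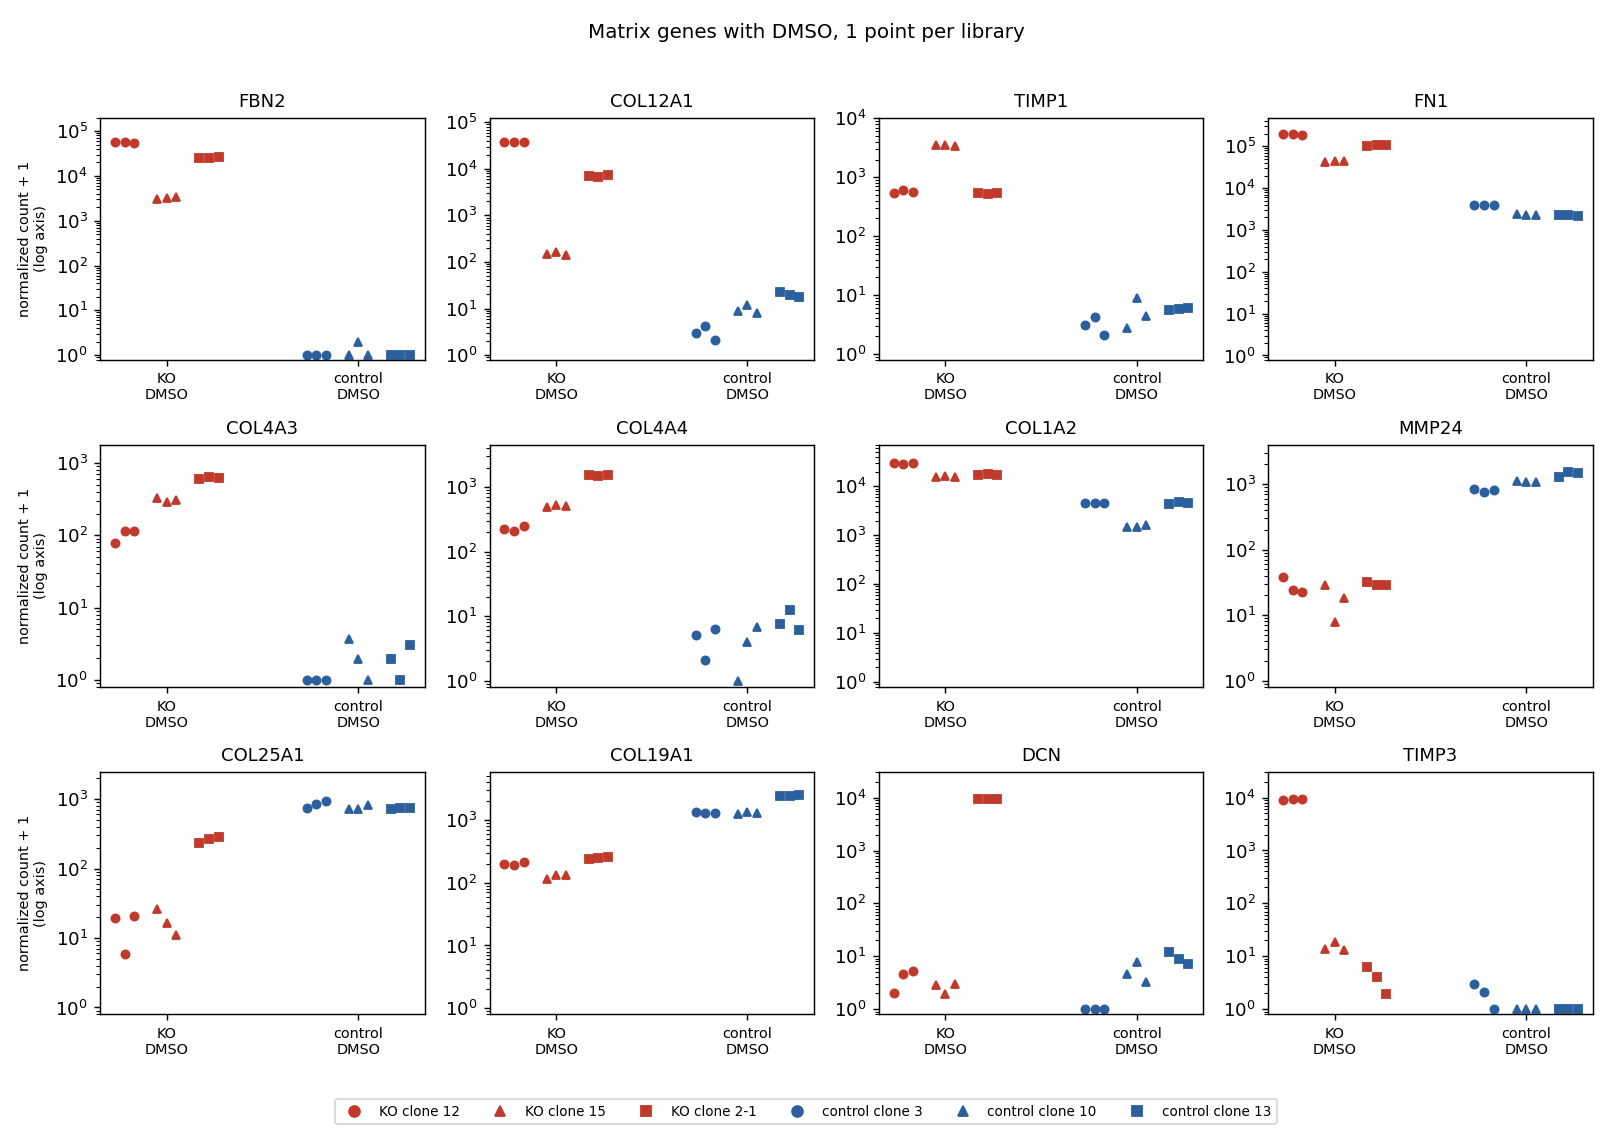
Normalized count + 1 (log axis) of 12 matrix genes in each library with DMSO, KO clones to the left in red and control clones to the right in blue, with 1 symbol per clone. FBN2 sits between 3082 and 58071 in KO libraries and at 0 in 8 of 9 control libraries, MMP24 is lower in every KO library, and DCN and TIMP3 are high in 1 KO clone each.

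Clones of 1 genotype lay apart in many of these genes. With DMSO the median SD between KO clones was 0.900 on the log2 scale over the 54 tested members and 0.339 over all genes tested, and between control clones it was 0.566 and 0.235. Between libraries of 1 clone it was 0.134 for the members in KO clones and 0.181 in control clones. A range over 2 log2 units between KO clones was seen for 25 of the 54 members and for 10.5% of all genes, and between control clones for 12 of the 54 members and 4.97% of all genes. Among the 20 members that rose, 9 were highest in KO clone 12, 7 in KO clone 15 and 4 in KO clone 2-1.
Several members were highest by far in a single clone. They were picked after their values were seen, and apart from LUM they did not enter the test. DCN, decorin, and LUM, lumican, are collagen-binding proteoglycans whose genes are neighbours on chromosome 12. DCN averaged 9470 in KO clone 2-1, 2.99 in KO clone 12, 1.62 in KO clone 15 and at most 8.24 in a control clone with DMSO. LUM averaged 16124 in KO clone 2-1, 178.3 in KO clone 12, 9.47 in KO clone 15 and 9.40 to 85.8 in control clones (log2 difference 2.95, SE 2.51, adjusted p = 0.507). TIMP3, the matrix-bound TIMP, averaged 9312 in KO clone 12, 14.2 in KO clone 15, 3.03 in KO clone 2-1 and at most 1.03 in a control clone. COL11A1, a fibrillar chain, averaged 3622 in KO clone 12, 3.83 in KO clone 15 and 25.7 in KO clone 2-1, and at most 0.976 in a control clone. COL23A1, a transmembrane collagen, averaged 657.3 in KO clone 12 and had no read in the 6 libraries of the other KO clones. COL17A1, the hemidesmosomal collagen, averaged 124.0 in KO clone 15 and at most 3.55 in the other KO clones. COL13A1 was the reverse, at 94.8 in control clone 13 and at most 1.65 in any other clone. The other untested members, among them COL5A1, LAMA2, FBLN1 and MMP19, stayed at or below 31.1 in each of the 35 libraries.

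With JQ1 the comparison of genotypes gave 14 members higher and 6 lower in KO clones, where 5.66% of all genes tested were higher and 5.57% lower (11.2% in either direction). The same clones underlie both genotype comparisons, and their overlap over all genes was not counted. Every one of these 14 and 6 was also called with DMSO, and they make up 70.0% of the 20 rises and 75% of the 8 falls there. COL21A1, COL7A1, FBLN5, LAMA3, LAMA5, MMP14, COL16A1 and COL9A1 passed with DMSO only. Of the 14, FBN2, TIMP1, COL4A3, COL14A1 and COL5A3 reached the filter, which pooled both treatments, without a control library at 10. Their calls here, too, support nothing further. The median log2 difference of the 54 members was 1.09, against 0.0044 over all genes. It includes them and COL21A1, LAMA3, LAMA4 and COL9A1, which also had to differ to be tested. FBN2 ranged from 1257 to 46021 in KO libraries with JQ1 (median 14142), and 8 of 9 control libraries with JQ1 held 0 (134747 reads against 1, ratio 142000, 95% interval 25500 to 5620000). TIMP1 averaged 1187 ± 1564 in KO and 2.59 ± 2.10 in control clones (log2 difference 7.85, SE 0.93, adjusted p = 0.00264). COL1A2 averaged 6105 ± 995.9 in KO and 593.5 ± 417.9 in control clones (log2 difference 3.76, SE 0.66, adjusted p = 0.0134). MMP24 averaged 17.6 ± 4.43 in KO and 900.0 ± 304.8 in control clones (log2 difference -5.63, SE 0.33, adjusted p = 0.000121). Without control clone 10 the count of 20 called members dropped to 11, with 7 higher and 4 lower.

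JQ1 lowered most matrix transcripts in both genotypes. In KO clones 41 of the 54 tested members fell and 0 rose by limma, where 30.2% of all genes fell and 26.3% rose (56.5% in either direction). At an unadjusted p under 0.05 the counts were 43 lower and 0 higher, and edgeR and DESeq2 each gave 42 lower and 0 higher. In control clones 33 members fell and 2 rose, where 27.4% of all genes fell and 25.3% rose (52.7% in either direction). The median log2 change of the members was -0.98 in KO clones and -0.76 in control clones, against -0.0506 and -0.0094 over all genes. Of the members that fell, 30 fell in both genotypes, 73.2% of those in KO clones and 90.9% of those in control clones. Some of the 30 held few reads in control clones, such as LAMA4 (0 with JQ1 and 27 with DMSO) and COL14A1 (11 and 27). The control calls of COL14A1, POSTN and TIMP1 were lost without some single clones (adjusted p up to 0.231, 0.215 and 0.199). In every one of the 6 clones, 34 of the 54 members were lower with JQ1. Neither this count nor the overlap was taken over all genes, so how far they exceed the background was not tested.
LUM had the largest fall in KO clones on the log2(normalized count + 1) scale, with a mean of 713.3 ± 1201 with JQ1 and 5437 ± 9255 with DMSO. Its log2 change was -2.17, -3.01 and -2.94 in KO clones 12, 15 and 2-1 (mean -2.71, SE 0.24, adjusted p = 4.33e-05). The value of clone 15 is set by the added count, since LUM averaged 0.284 there with JQ1, with 2 of 3 libraries at 0, and 9.47 with DMSO. In control clones LUM averaged 5.18 ± 3.90 with JQ1 and 55.7 ± 40.7 with DMSO (log2 change -3.12, SE 0.24, adjusted p = 2.77e-05). COL1A2 ranged from 5113 to 7248 in KO libraries with JQ1 and from 15474 to 30172 in KO libraries with DMSO (log2 change -1.73, SE 0.26, adjusted p = 0.000709). In control libraries it ranged from 115.3 to 974.5 with JQ1 and from 1462 to 4726 with DMSO (log2 change -2.82, SE 0.26, adjusted p = 6.74e-05). COL3A1 fell by 1.49 on the log2 scale in KO clones and by 2.16 in control clones (SE 0.16 each, adjusted p = 0.000111 and 2.64e-05). COL8A2 averaged 106.5 ± 10.4 with JQ1 and 598.7 ± 194.4 with DMSO in KO clones (log2 change -2.44, SE 0.19, adjusted p = 2.68e-05), and 535.3 ± 36.5 with JQ1 and 2015 ± 70.8 with DMSO in control clones (log2 change -1.91, SE 0.19, adjusted p = 8.13e-05). MMP2 changed by nearly the same amount in all 6 clones, between -1.55 and -1.16, with means of -1.40 in KO and -1.34 in control clones (SE 0.08 each, adjusted p = 1.19e-05 and 1.38e-05). COL6A3 was among the deepest falls, at 9.94 ± 7.93 with JQ1 and 76.8 ± 79.4 with DMSO in KO clones (log2 change -2.42, SE 0.46, adjusted p = 0.00214), and 13.8 ± 5.91 with JQ1 and 86.7 ± 52.6 with DMSO in control clones (log2 change -2.54, SE 0.46, adjusted p = 0.00182).
Other collagens and glycoproteins followed in both genotypes. COL27A1, a fibrillar chain, averaged 90.2 ± 50.2 with JQ1 and 289.2 ± 109.1 with DMSO in KO clones (log2 change -1.75, SE 0.15, adjusted p = 3.87e-05), and 105.8 ± 50.2 with JQ1 and 199.7 ± 70.4 with DMSO in control clones (log2 change -0.99, SE 0.15, adjusted p = 0.000708). BGN, biglycan, a proteoglycan of the family of DCN and LUM, changed by -1.69 in KO clones and by -1.52 in control clones (SE 0.18 each, adjusted p = 0.000114 and 0.000217). COL15A1, a collagen of the outer face of basement membranes, changed by -1.62 in either genotype (SE 0.30, adjusted p = 0.00186 in KO and 0.00205 in control clones). Its level with DMSO spanned 4.35 to 373.0 between KO clones. Control clones averaged 1.32 with JQ1 (11 reads) and 5.30 with DMSO (47 reads), and KO clone 2-1 averaged 0.996 and 4.35. At these levels the change depends on the added count. LAMB3 averaged 425.5 ± 584.4 with JQ1 and 1746 ± 2409 with DMSO in KO clones, with changes of -2.04, -2.31 and -1.78 in clones 12, 15 and 2-1 (mean -2.04, SE 0.31, adjusted p = 0.000709).
COL14A1 averaged 22.1 ± 11.7 with JQ1 and 114.8 ± 50.9 with DMSO in KO clones (log2 change -2.46, SE 0.39, adjusted p = 0.000901). POSTN averaged 1117 ± 1727 with JQ1 and 3497 ± 5044 with DMSO in KO clones (log2 change -2.06, SE 0.41, adjusted p = 0.00271). FBN2, close to 0 in control clones, changed in KO clones by -0.32, -1.31 and -0.83 in clones 12, 15 and 2-1 (mean -0.82, SE 0.17, adjusted p = 0.00388). Its lowest KO library with JQ1, at 1257, was still above all control libraries.
TIMP1 and COL12A1, at few reads in control clones, fell less. TIMP1 averaged 1187 ± 1564 with JQ1 and 1525 ± 1682 with DMSO in KO clones (log2 change -0.71, SE 0.23, adjusted p = 0.0286, up to 0.142 when clone 12 or clone 2-1 was left out). COL12A1 averaged 8626 ± 11767 with JQ1 and 15090 ± 20214 with DMSO in KO clones, with changes of -0.79, -0.91 and -0.91 in the 3 clones (mean -0.87, SE 0.15, adjusted p = 0.00139). The 13 members with no call in KO clones included COL4A3 (log2 change -0.28, SE 0.26, adjusted p = 0.375), COL4A4 (0.16, SE 0.30, adjusted p = 0.663), LAMC1 (-0.15, SE 0.07, adjusted p = 0.0984) and LAMB2 (-0.12, SE 0.07, adjusted p = 0.183). The 2 rises in control clones were COL11A2, a fibrillar chain, at 43.9 ± 16.97 with JQ1 and 25.8 ± 13.4 with DMSO (log2 change 0.84, SE 0.21, adjusted p = 0.00893), and COL6A2 at 4.71 ± 2.81 with JQ1 and 1.51 ± 1.48 with DMSO (log2 change 1.18, SE 0.23, adjusted p = 0.00282). The COL6A2 values rest on 39 reads with JQ1 and 13 with DMSO over 9 libraries each. Control clone 13 with JQ1 held 16.1 normalized counts in replicate 1, 0 in replicate 2 and 7.28 in replicate 3. That replicate 1 library also held the highest lung epithelial sum of those used (129.8) and COL4A1 at 14.8. The part of such transcripts in its COL6A2 count was not tested.

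**Figure D3:**
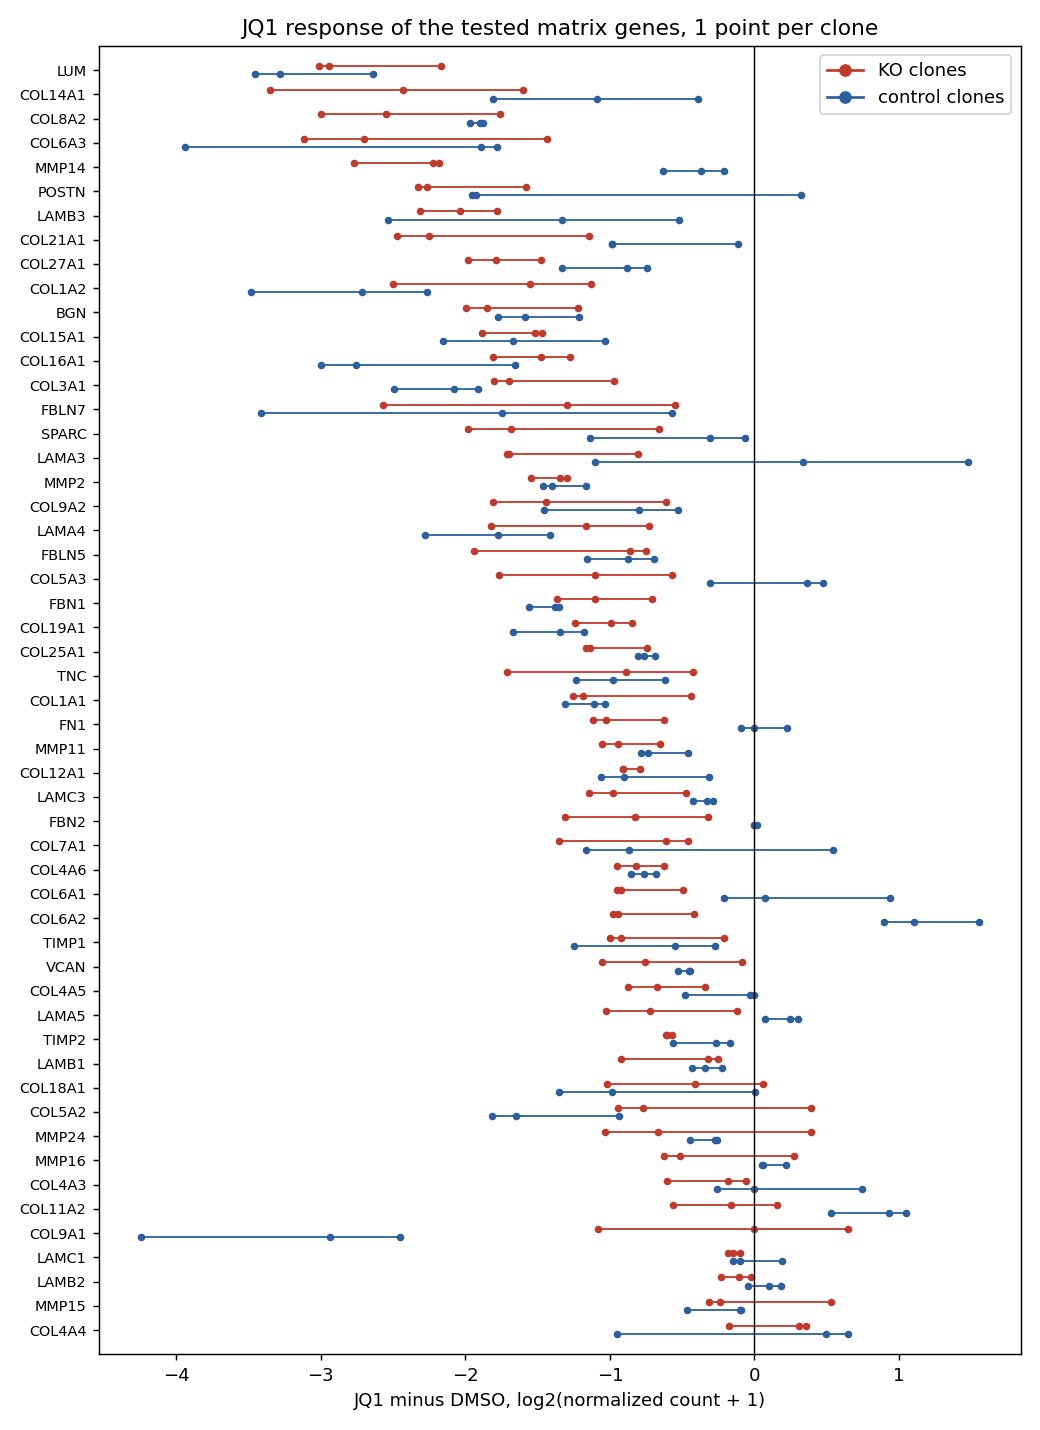
JQ1 minus DMSO on the log2(normalized count + 1) scale for all but 1 of the 54 tested matrix genes, 1 point per clone, KO clones in red above control clones in blue, ordered by the mean change in KO clones. Most points lie left of 0, LUM is lowest among KO clones at -2.71 on average, and MMP14, FN1 and COL6A2 have KO points left of all control points.

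The response to JQ1 itself was compared between genotypes as KO minus control. By limma 4 members responded more negatively in KO clones and 1 less negatively, where 3.58% and 3.76% of all genes tested did so (7.35% in either direction). These 5 are near the background and depend on single clones, as given with each. FN1 averaged 56868 ± 33778 with JQ1 and 113303 ± 74283 with DMSO in KO clones, and 2882 ± 885.0 with JQ1 and 2810 ± 938.3 with DMSO in control clones. Its log2 change was -1.02, -0.63 and -1.12 in KO clones 12, 15 and 2-1 and -0.01, -0.09 and 0.22 in control clones 3, 10 and 13, a difference of -0.97 (SE 0.14, adjusted p = 0.0126). Without control clone 3, 10 or 13 the FN1 call was lost (adjusted p up to 0.0613), and limma without the trend also lost it (0.0633). MMP14 ranged from 10.5 to 39.2 with JQ1 and from 39.9 to 192.9 with DMSO in KO libraries, and from 1.04 to 11.4 with JQ1 and from 2.901 to 14.3 with DMSO in control libraries (difference -1.99, SE 0.33, adjusted p = 0.0186, lost without KO clone 15 or any single control clone, up to 0.0842). LAMA5 averaged 2312 ± 362.5 with JQ1 and 3557 ± 567.3 with DMSO in KO clones, and 1760 ± 465.0 with JQ1 and 1504 ± 341.5 with DMSO in control clones (difference -0.83, SE 0.20, adjusted p = 0.043, lost without any single clone except KO clone 2-1, up to 0.15). COL6A2 averaged 191.7 ± 146.4 with JQ1 and 314.7 ± 233.7 with DMSO in KO clones, beside its few reads in control clones (difference -1.96, SE 0.33, adjusted p = 0.0187, lost without KO clone 15 or any single control clone, up to 0.0679). COL9A1 gave the positive difference (3.06, SE 0.68, adjusted p = 0.0354). It held 6 reads with JQ1 and 10 with DMSO over the KO libraries, and averaged 3.01 ± 1.23 with JQ1 and 35.1 ± 19.0 with DMSO in control clones. The COL9A1 call, too, was lost without any single control clone. A fall of the size seen in control clones could not be measured at 10 reads.

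**Figure D4:**
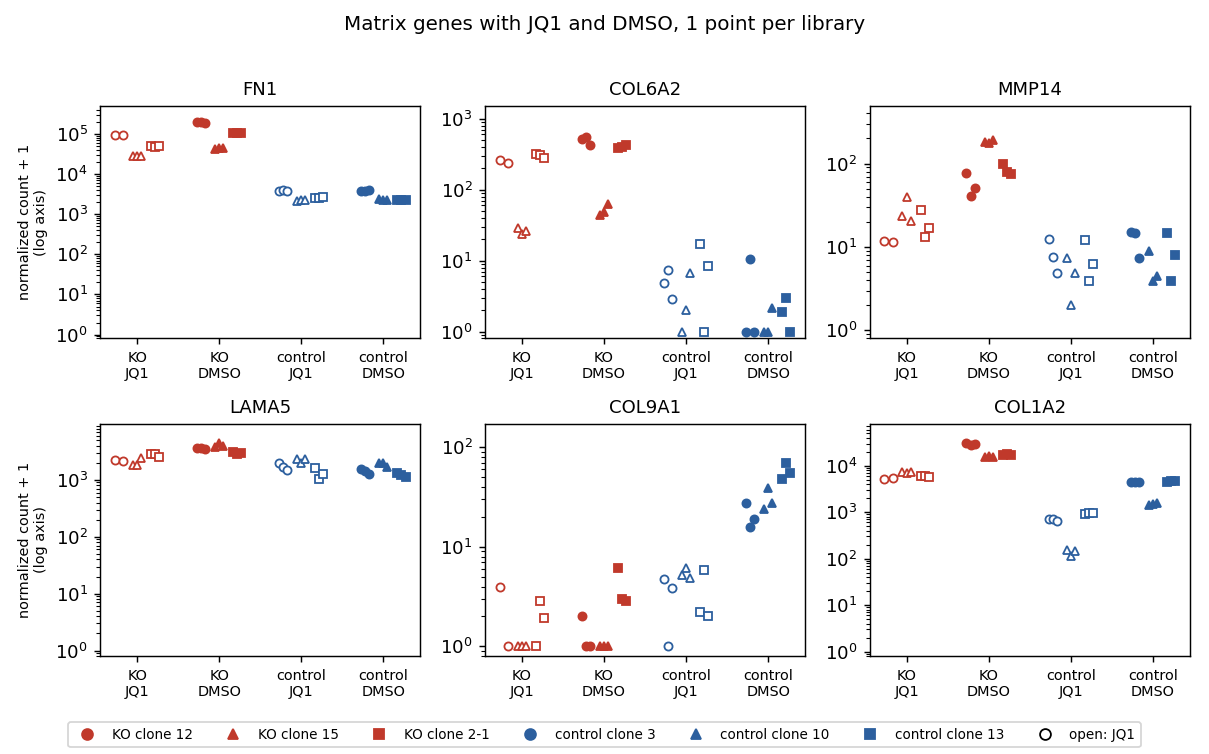
Normalized count + 1 (log axis) of 6 matrix genes in every library used, in the order KO with JQ1, KO with DMSO, control with JQ1 and control with DMSO, with 1 symbol per clone and open symbols for JQ1. FN1 and MMP14 are lower with JQ1 in every KO clone, and COL9A1 in KO clones is near 0 under both treatments.

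Genes that make, anchor and remodel the matrix outside the gene set were counted in 4 lists, to be read against the 6.29% of all genes tested that rose and the 6.26% that fell with DMSO. The lists were not split by the filter, so genes that reached it through 1 genotype only are counted in them. Among all genes tested, 66.5% of those without a control library at 10 rose, and 85.4% of those without a KO library at 10 fell. NID1 and ADAMTS14, at few counts in 1 genotype, may be of that kind. Of 23 tested collagen processing enzymes, 4 rose and 2 fell in KO clones with DMSO. P4HA2, a prolyl hydroxylase of collagen chains, averaged 686.3 ± 350.1 in KO and 4064 ± 1764 in control clones (log2 difference -2.60, SE 0.45, adjusted p = 0.013, 0.0533 without control clone 10). ADAMTS14, a procollagen N-proteinase, averaged 1.82 ± 1.65 in KO and 122.9 ± 75.7 in control clones (log2 difference -5.56, SE 0.67, adjusted p = 0.00371). TLL1, a procollagen C-proteinase, averaged 541.9 ± 350.7 in KO and 128.8 ± 32.1 in control clones (log2 difference 1.92, SE 0.45, adjusted p = 0.0375), a call lost without KO clone 12 or any single control clone (up to 0.131).
Of 23 matrix receptors tested, 14 rose and 1 fell, with a median log2 difference of 2.15. ITGA3, the integrin chain that binds laminin, averaged 2902 ± 1486 in KO and 14.9 ± 9.13 in control clones (log2 difference 7.59, SE 0.58, adjusted p = 0.000577). The syndecans SDC2 and SDC4 rose by 5.85 (SE 0.80, adjusted p = 0.00593) and 5.71 (SE 0.56, adjusted p = 0.00156) on the log2 scale, SDC2 to 4142 ± 1963 in KO clones against 103.7 ± 119.8 in control clones. Of 19 basement membrane linkers and elastic fibre genes tested, 6 rose and 2 fell. EFEMP1, a fibulin, averaged 3384 ± 2376 in KO and 19.4 ± 4.59 in control clones (log2 difference 7.04, SE 0.67, adjusted p = 0.00142), and NID1, which links laminin to type IV collagen, averaged 104.8 ± 89.5 in KO and 0.430 ± 0.374 in control clones (log2 difference 5.74, SE 0.93, adjusted p = 0.0103). Of 20 other proteases and inhibitors tested, 5 rose and 3 fell. ADAMTS7 averaged 17.3 ± 14.8 in KO and 525.0 ± 196.3 in control clones (log2 difference -5.19, SE 0.69, adjusted p = 0.00536).
With JQ1 these lists did not all fall, and several of their counts lie near those of all genes (30.2% fell and 26.3% rose in KO clones, 27.4% fell and 25.3% rose in control clones). Linkers and elastic fibre genes had 15 falls among 19 in KO clones and 9 in control clones. Receptors had 15 falls and 1 rise among 23 in KO clones, and 6 falls and 4 rises in control clones. Collagen processing enzymes had 14 falls and 3 rises among 23 in KO clones, and 12 falls and 6 rises in control clones. Other proteases and inhibitors had 8 falls and 2 rises among 20 in KO clones, and 4 falls and 7 rises in control clones. PCOLCE, an enhancer of procollagen C-proteinases, and DDR2, a receptor kinase for fibrillar collagen, fell in both genotypes. PCOLCE averaged 46.7 ± 12.6 with JQ1 and 150.2 ± 62.4 with DMSO in KO clones (log2 change -1.63, SE 0.15, adjusted p = 5.11e-05), and DDR2 averaged 2047 ± 537.6 with JQ1 and 4961 ± 876.9 with DMSO in KO clones (log2 change -1.30, SE 0.12, adjusted p = 4.72e-05). EMILIN1, a glycoprotein of elastic fibres, fell by 2.61 on the log2 scale in KO clones and by 3.19 in control clones (SE 0.10 each, adjusted p = 3.96e-06 and 2.04e-06).

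Some members are immediate neighbours in the GENCODE 29 annotation of GRCh38. Such pairs include COL4A3 with COL4A4 and COL3A1 with COL5A2 on chromosome 2, COL4A5 with COL4A6 on chromosome X, COL6A1 with COL6A2 on chromosome 21, LUM with DCN on chromosome 12 and COL19A1 with COL9A1 on chromosome 6. In KO clones with DMSO both genes of 3 of these pairs passed in 1 direction, COL4A3 with COL4A4 and COL6A1 with COL6A2 upward and COL19A1 with COL9A1 downward. COL4A3 and COL9A1 are among the members that had to differ to be tested. The share of all neighbouring gene pairs that passed in 1 direction was not counted, so nothing is read from the 3. COL3A1 and COL5A2 were both high in control clone 3, but in KO clones COL3A1 averaged 100.1 ± 40.9 FPKM and COL5A2 0.460 ± 0.158 FPKM with DMSO. No source used here says whether reads were counted by strand, so reads of overlapping antisense transcripts cannot be told apart from those of these genes.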

How the data were processed

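Messenger RNA was sequenced from TruSeq Stranded libraries, per the labels' protocols. The submitters' processing notes name cutadapt, STAR, RSEM and hg19, without versions. The authors deposited a table of 19014 genes whose values are a signal, the count of a gene over the size factor of its library, and a table of 57820 genes in FPKM, as deposited scaled by gene length. Whole reads were recovered from the normalized counts (100% of values within 1e-06 of a whole multiple). Normalized counts are corrected for depth but not for length, so levels of different genes were compared in FPKM; shares of all normalized counts are not corrected for length. Replicate numbers share a clone, which was the replicate, so p-values measure the spread between these clones.

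Tests used limma 3.58.1 (R 4.3.3, trend) on clone means of log2(normalized count + 1), for the 15711 genes that reached 10 normalized counts in 9 or more of 35 libraries. JQ1 was tested on each clone's JQ1 minus DMSO difference, with 1 spread over the 6 clones. Two-sided p-values were adjusted (Benjamini-Hochberg) over all genes tested, with a threshold of 0.05; fold changes on this scale understate changes of low genes. Ratios against 1 to 3 reads carry a 95% exact interval for counting error. Library KO clone 12, JQ1, replicate 1 was left out.

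The members and all lists were chosen with earlier results of these data known. Named were FBN2, COL12A1, TIMP1 and COL1A2, per comparison the 12 largest rises and falls among called members with a mean of at least 50, the member of highest FPKM of a list not otherwise named, and of each pathway list some of the up to 3 called genes with the largest change. Some genes that this rule names are not reported here. Other genes are named to complete a family or after their values were seen. Alternatives included edgeR 4.0.16 and DESeq2 1.42.0 on recovered reads. The limma steps were tested on simulated data. Promoters are from RefSeq (GRCh38.p14), neighbours from GENCODE 29; no hg19 coordinates were used. Figures were drawn with matplotlib 3.10.9.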

Additional observations from a re-analysis of the deposited data

Results flagged for a closer look

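The JQ1 response of 5 matrix genes differed between KO and control clones by the test of the difference itself, 9.26% of those tested, where 7.35% of all genes tested differed. By limma none of the 5 passed without any single control clone. The KO minus control difference was -0.97 for FN1, -1.99 for MMP14, -1.96 for COL6A2, -0.83 for LAMA5 and 3.06 for COL9A1 on the log2 scale. For COL9A1 the KO libraries held 6 reads with JQ1 and 10 with DMSO, and for COL6A2 the control libraries held 39 reads with JQ1 and 13 with DMSO. COL6A2 was highest among control libraries in clone 13 with JQ1, replicate 1, at 16.1 normalized counts. That library also held the highest lung epithelial sum of those used, 129.8.

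The library left out of every comparison, KO clone 12 with JQ1, replicate 1, held matrix transcripts that no other library held at that level. COL6A3 stood at 11047 normalized counts in it, COL4A1 at 7207, MMP14 at 3112 and COL5A1 at 2304. In the 35 other libraries COL4A1 did not exceed 14.8 (control clone 13 with JQ1, replicate 1) and COL5A1 did not exceed 13.3. The left-out library held 31825795 reads. Its lung epithelial markers summed to 67884, against at most 129.8 in the others (again that control library). Its blood markers summed to 14334, against at most 934.9 in the others. PDGFRA and PDGFRB stood at 794.8 and 1307 in it. The part of such transcripts in its matrix levels was not tested.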

How the results depend on the processing

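The counts of called members for genotype with DMSO (28), JQ1 in KO clones (41) and JQ1 in control clones (35) stayed within 1.5 times under every alternative run. Leaving out 1 clone gave 20 to 25, 38 to 43 and 28 to 36, and leaving out 1 replicate number gave 27 to 28, 38 to 41 and 31 to 34. For genotype with JQ1 the count of 20 became 38 with libraries as replicates, 38 with the replicate block as well, 11 to 19 without 1 clone (11 without control clone 10) and 20 to 22 without 1 replicate number. For the difference in response the count of 5 became 3 at a filter of 50 normalized counts, 1 on FPKM, 2 without the trend, 3 by edgeR, 9 by DESeq2, 2 with the left-out library, and 28 with libraries as replicates, with or without the replicate block. It was 0 to 7 without 1 clone, being 0 by limma without any single control clone (unadjusted 1 to 6 higher and 11 to 12 lower) and 2 without KO clone 15, and 2 to 4 without 1 replicate number (2 without replicate 3). With the left-out library the other counts were 21 for genotype with JQ1, 32 for JQ1 in KO clones and 31 for JQ1 in control clones. The cause of these moves was not tested. Beside them, at an unadjusted p under 0.05 the genotype comparison with DMSO gave 24 members higher and 10 lower by limma, and edgeR called 19 and 6 and DESeq2 23 and 7. Across named genes and alternatives no direction of a called value reversed, with 6664 values on the same side of the threshold, 219 newly past it and 330 no longer past it. Equal library totals moved the median of all genes for JQ1 in KO clones to -0.1121 and no filter on low values to -0.1037, against -0.0506, and the members' median of -0.98 lies beyond both. The replicate numbers did not pair the libraries: of 187 pairs of the same number the median correlation of deviations was 0.005, and 11 exceeded 0.1. With 3 clones per genotype the precision is set by the clones, and members under about 10 reads in a group carry wide counting error.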
